A study of Homo sapiens with 12 samples.

Results

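The response to interferon gamma (IFNγ) that U251 cells kept under every siRNA was described here. Its members were the genes called over all 12 libraries, 6 with IFNγ and 6 without, with the siRNA as a covariate, for which both stimulated libraries of each siRNA group also lay beyond both unstimulated ones in the same direction. Of 45416 genes in the deposited table, 17982 had enough reads to be tested and 805 were shared in this sense, 650 raised and 155 lowered. U251 is an established human glioblastoma line. Cells were transfected for 48 h with a control siRNA (siNC) or with 1 of 2 siRNAs against *PD-L1* (siPDL1-1, siPDL1-2) and were left unstimulated or given IFNγ, at 100 U/ml for 24 h by the labels. Each of the 6 conditions had 2 libraries. Every library, the siNC ones included, came from transfected cells of this same line, and untransfected cells were not analysed here. The methods speak of 2 independent experiments, but the labels do not say which libraries belong to which. The p-values therefore measure the spread between these libraries. In the fit over 12 libraries this spread also holds differences of the IFNγ effect between siRNA groups.

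IFNγ binds the receptor chains IFNGR1 and IFNGR2, which activate the kinases JAK1 and JAK2. These phosphorylate STAT proteins, whose dimers enter the nucleus and bind GAS elements, among others that of *IRF1*. IRF1 and complexes with IRF9 bind the related ISRE element, and the genes reached in this way are known for antigen presentation, attraction of lymphocytes, defence within the cell, and brakes on T cells such as PD-L1.

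Libraries held between 17101069 and 55657393 reads on genes, so that 1 read was worth between 0.0187 and 0.0586 CPM, the normalized unit of the deposited table. Markers of cell types were read without a reference profile of the line to compare. Of 10 glioma or astrocytic markers 8 exceeded a mean of 1 CPM (*VIM*, *CD44*, *SOX2*, *NES*, *EGFR*, *FABP7*, *GFAP*, *S100B*), and *OLIG2* and *AQP4* did not. The 8 lymphocyte markers summed to between 0.0471 and 0.253 CPM, with *CD2* and *MS4A1* at 0 in every library. Of 9 microglia or macrophage markers only *CD68* exceeded 1 CPM, and the sum of this list was between 29.1 and 45.3 CPM in unstimulated and between 42.3 and 81.0 CPM in stimulated libraries. Endothelial markers above 1 CPM were *KDR* and *VWF* (sum 9.40 to 13.0 CPM unstimulated, 5.75 to 7.75 CPM with IFNγ), neuronal ones were *GAD1*, *SLC17A7*, *SNAP25* and *SYT1* (17.2 to 20.7 and 23.6 to 29.9 CPM), and none of 4 oligodendrocyte markers did (0.359 to 0.725 and 0.706 to 0.993 CPM). The part of these shifts in the results was not tested.

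*CD274*, the gene of PD-L1 and the target of both siRNAs, was read first. Without IFNγ it stood at 4.60 and 4.91 CPM in siNC, 2.67 and 2.73 CPM in siPDL1-1, and 3.57 and 3.45 CPM in siPDL1-2 cells. With IFNγ it stood at 71.2 and 76.0 CPM, 60.9 and 66.7 CPM, and 37.5 and 35.0 CPM, in the same order. All knockdown libraries were thus below the siNC libraries of the same stimulation, and all stimulated libraries above all unstimulated ones. Over 12 libraries the log2 fold change was 3.62 (SE 0.14, limma adjusted p = 2.39e-09), and it differed between siRNA groups (3.70 in siNC, 4.13 in siPDL1-1, 3.05 in siPDL1-2, adjusted p = 2.45e-05). A noncoding gene on the opposite strand overlaps *CD274*, and reads were counted without regard to strand.

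Next, the size of the shared response was examined. Fold changes are differences of log2(CPM + 1), which understate the change of genes with few reads, and genes were called at an adjusted p (FDR) under 0.01 and a fold change above 1.5. Over 12 libraries 676 genes were raised (3.76% of genes tested) and 159 lowered (0.884%), of which 650 (3.61%) and 155 (0.862%) were shared. Since these calls chose the members, their values below describe the set. The groups being compared share no library between siRNAs, and the order within each siRNA group alone was met in the raised direction by 11.1% and in the lowered direction by 10.7% of all genes tested. In 606 of the 650 raised genes all 6 stimulated libraries lay above all 6 unstimulated ones, as in 6.4% of genes tested, and in 113 of the 155 lowered genes all lay below, as in 3.44%. Calls in each siRNA group taken alone were made for 437 of the raised genes (2.43% of genes tested) and 65 of the lowered ones (0.361%).

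The raised side of the response was larger than the lowered side in number and in size at these thresholds. The shared lowered genes numbered 340 with edgeR's quasi-likelihood test, 357 with DESeq2 and 334 with a pseudocount of 0.1, and with no fold threshold 1662 shared genes were raised and 1427 lowered. The median log2 fold change was 1.00 over the raised and -0.72 over the lowered genes, beside -0.0036 over all genes tested. Changes above 1, 2, 3 and 4 on this scale were seen in 326, 140, 73 and 35 raised genes. Of the lowered genes, 21 changed by more than 1 and 0 by more than 2. Of the raised genes 592 were protein-coding and 55 were long noncoding, and of the lowered genes 138 and 17 were.

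The part of the RNA read that the shared genes held was described next. Its direction follows from how the genes were chosen, and only its size is described. The 650 raised genes held between 2.07% and 2.25% of the CPM of unstimulated libraries and between 5.62% and 7.71% of stimulated ones. The 155 lowered genes went from between 0.640% and 0.667% to between 0.334% and 0.380%. Neither set overlapped between conditions, which the choice of the genes largely fixed in advance. In reads gained, *WARS1*, the cytoplasmic tryptophanyl-tRNA synthetase, came first, with 5.45% of the sum over raised genes, followed by the guanylate binding protein gene *GBP5* with 4.80%. *GBP5* and this order were picked after their values were seen.

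**Figure D1:**
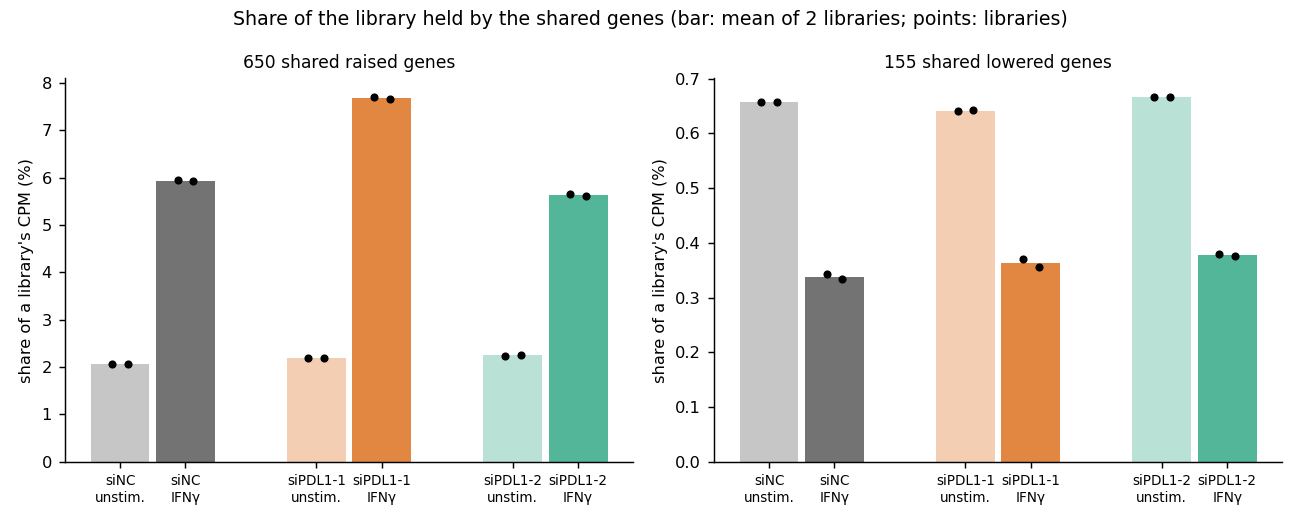
Share of each library's CPM held by the 650 shared raised genes (left) and the 155 shared lowered genes (right), in percent, for each siRNA with and without IFNγ. Bars are means of 2 libraries and points are the libraries. Raised genes went from 2.07% to 2.25% up to between 5.62% and 7.71%, highest in siPDL1-1 cells, and lowered genes fell to between 0.334% and 0.380%. The 2 directions follow from how the genes were chosen.

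The 12 shared raised genes with the largest changes at a mean of at least 5 CPM were, in order, *IDO1*, *CD74*, *GBP4*, *CXCL10*, *APOL1*, *PLAAT4*, *GBP1*, *XAF1*, *APOL3*, *IFIT3*, *PSMB9* and *OAS2*. *IDO1*, which starts tryptophan breakdown, was between 0 and 0.196 CPM (median 0.0784) without IFNγ and between 233 and 516 CPM (median 244) with it, a log2 fold change of 8.16 (SE 0.14). *PLAAT4*, a phospholipid-metabolizing enzyme, went from between 0.441 and 1.13 CPM to between 112 and 138 CPM (6.16, SE 0.06). *APOL3*, an apolipoprotein L with a role against intracellular bacteria, went from between 0.0979 and 1.01 CPM to between 62.5 and 70.8 CPM (5.41, SE 0.13). In all 12 genes every stimulated library lay above every unstimulated one.

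**Figure D2:**
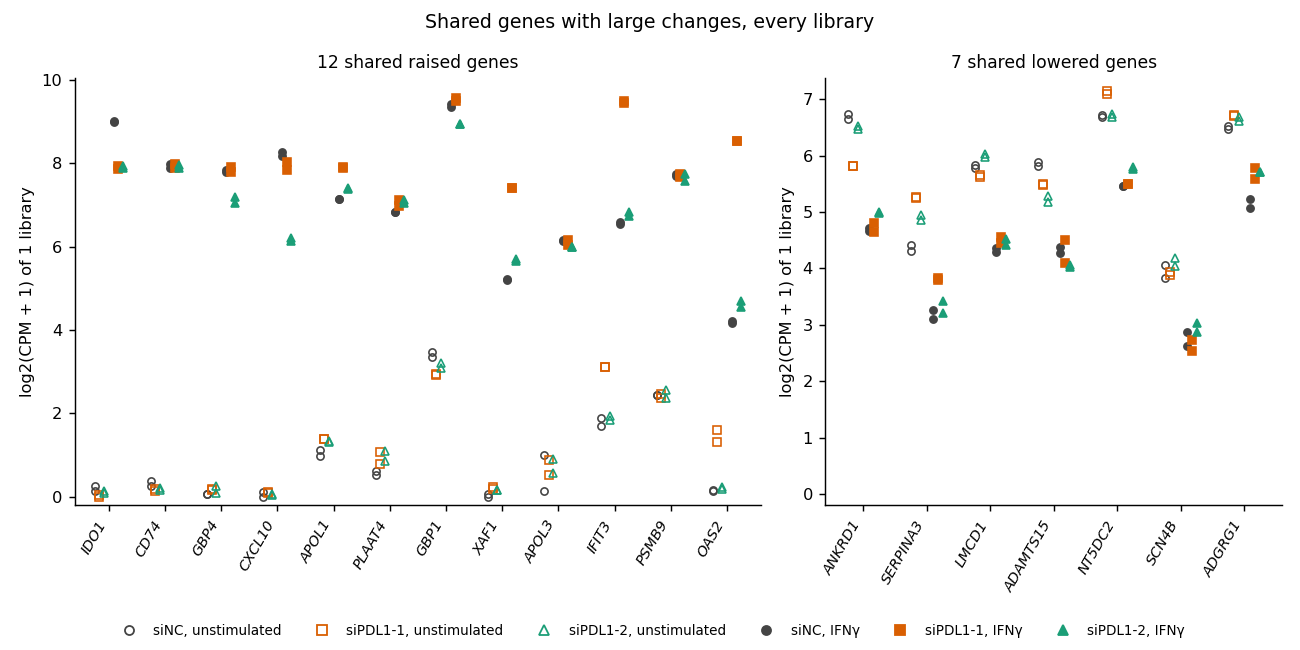
Values of 12 raised (left) and 7 lowered (right) shared genes with large changes, as log2(CPM + 1) of each of the 12 libraries. Open symbols are unstimulated and filled symbols IFNγ libraries, with shape and colour giving the siRNA. Filled and open symbols did not overlap for any of the 19 genes, while *XAF1*, *IFIT3* and *OAS2* stood higher with IFNγ in siPDL1-1 cells than in the other groups and *CXCL10* stood lower in siPDL1-2 cells.

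Because these genes rose together, their promoters were read for the elements that the pathway uses. RefSeq promoters (GRCh38.p14, 250 bases before to 50 after the start) were matched by symbol or gene ID to 12678 of the genes tested. Searched were TTCNNNGAA for GAS and GAAANNGAAA for ISRE, on both strands, so that the ISRE also appears as TTTCNNTTTC. The first holds in 6.40% and the second in 2.93% of the promoters of all genes tested. Among shared raised genes the counts were 54 and 89 of 462 promoters (11.7% and 19.3%), and among shared lowered genes 7 and 4 of 97 (7.22% and 4.12%). As entries were matched for 462 of 650 raised and 97 of 155 lowered genes, a comparison of these shares is void and they are a description only. Of 27 raised genes that led the list or belong to the signalling genes, 16 had an entry. In 9 of these a match was found, and 7 held neither element (*BATF2*, *CD74*, *JAK2*, *PSMB9*, *SOCS3*, *STAT2* and *XAF1*). Shown are the 5 of the 9 with the largest changes, picked because they hold a match, with the matching letters in capitals, to let the element be seen beside the change.
GBP4 (chr1:89198893-89199192, minus strand): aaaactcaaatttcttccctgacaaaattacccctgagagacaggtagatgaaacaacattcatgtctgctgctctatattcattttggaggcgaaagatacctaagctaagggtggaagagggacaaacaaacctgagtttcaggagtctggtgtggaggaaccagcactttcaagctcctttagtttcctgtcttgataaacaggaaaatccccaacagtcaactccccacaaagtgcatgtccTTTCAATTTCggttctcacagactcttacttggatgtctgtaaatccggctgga
CXCL10 (chr4:76023448-76023747, minus strand): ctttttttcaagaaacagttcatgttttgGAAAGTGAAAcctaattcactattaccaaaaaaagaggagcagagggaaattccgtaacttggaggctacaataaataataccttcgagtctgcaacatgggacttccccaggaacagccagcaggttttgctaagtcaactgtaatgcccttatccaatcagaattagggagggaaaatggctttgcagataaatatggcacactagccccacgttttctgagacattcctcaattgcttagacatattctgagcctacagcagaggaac
GBP1 (chr1:89065159-89065458, minus strand): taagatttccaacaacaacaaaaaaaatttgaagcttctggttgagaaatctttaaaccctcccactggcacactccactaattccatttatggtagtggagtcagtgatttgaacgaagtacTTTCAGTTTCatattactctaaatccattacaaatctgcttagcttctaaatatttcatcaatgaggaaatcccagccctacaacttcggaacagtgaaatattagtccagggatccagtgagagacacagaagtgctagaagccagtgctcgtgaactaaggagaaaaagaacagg
IFIT3 (chr10:89327747-89328046, plus strand): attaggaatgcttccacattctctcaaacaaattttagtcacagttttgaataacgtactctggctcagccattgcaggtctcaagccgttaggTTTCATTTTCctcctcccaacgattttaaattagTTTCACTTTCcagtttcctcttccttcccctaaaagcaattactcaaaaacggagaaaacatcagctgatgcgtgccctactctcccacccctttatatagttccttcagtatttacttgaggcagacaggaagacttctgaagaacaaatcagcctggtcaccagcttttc
IRF1 (chr5:132490724-132491023, minus strand): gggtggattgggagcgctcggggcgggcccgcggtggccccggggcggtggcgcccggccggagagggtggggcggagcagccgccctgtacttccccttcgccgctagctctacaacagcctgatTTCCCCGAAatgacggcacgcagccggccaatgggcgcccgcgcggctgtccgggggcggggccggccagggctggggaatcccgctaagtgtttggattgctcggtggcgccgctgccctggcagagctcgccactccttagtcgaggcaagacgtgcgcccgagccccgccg
*GBP4*, *CXCL10*, *GBP1* and *IFIT3* held ISRE letters, *IFIT3* in 2 places, and *IRF1* held GAS letters 124 bases before its start. The ISRE letters began 4 bases before the start in *GBP4*, 127 in *GBP1*, 221 in *CXCL10*, and 156 and 122 in *IFIT3*. Log2 fold changes of these genes were 7.45 in *GBP4*, 7.37 in *CXCL10*, 6.12 in *GBP1*, 5.35 in *IFIT3* and 4.70 in *IRF1*. Such a match is a run of letters, and binding was not measured. Shared genes named in the text without an entry included *ADAMTS15*, *APOL1*, *APOL3*, *CASP1*, *CIITA*, *CSF1*, *GCH1*, *HLA-DRA*, *IDO1*, *MX2*, *NLRC5*, *NOS2*, *OAS2*, *PDCD1LG2*, *PLAAT4* and *SERPING1*.

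Genes of the IFNγ pathway itself were then examined. Of 25 tested signalling genes, 15 were raised in all siRNA groups and 0 lowered (median log2 fold change 1.02). *IRF1*, the transcription factor at the head of the secondary response, was between 12.5 and 19.5 CPM (median 15.1) without IFNγ and between 337 and 549 CPM (median 383) with it (4.70, SE 0.07, adjusted p = 6.35e-14). *BATF2*, a basic leucine zipper factor, went from between 0.212 and 0.506 CPM to between 22.3 and 58.7 CPM (4.64, SE 0.20). The kinase *JAK2*, the factors *STAT2*, *IRF2*, *IRF3*, *IRF9*, *BATF3* and *ETV7*, the STAT partners *NMI* and *IFI35*, and the feedback inhibitors *SOCS1*, *SOCS3* and *USP18* were also among the 15. *IRF7*, *CISH*, *PIAS1*, the receptor chains *IFNGR1* and *IFNGR2*, *JAK1*, and the phosphatases *PTPN2*, *PTPN6* and *PTPN11* were not called. *STAT3*, with 267 to 299 CPM unstimulated and 321 to 394 CPM stimulated, stayed under the fold threshold at 0.32 (SE 0.03), and *PTPN11* was at -0.18 (SE 0.03). Without siPDL1-2 cells 13 of the 25 genes were raised, and without siNC or siPDL1-1 cells 14 and 15.

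Most genes of antigen presentation by MHC class I were raised in every siRNA group. Of 16 genes tested 13 were shared and raised and 0 lowered, with medians of 2.11 in siNC, 2.10 in siPDL1-1 and 2.07 in siPDL1-2 cells. In 1 of the 13 the effect depended on the siRNA and was largest in siPDL1-1 cells. *TAP1*, a chain of the peptide transporter, went from between 47.2 and 62.8 CPM (median 52.4) to between 1257 and 1761 CPM (median 1336; 4.68, SE 0.04). *HLA-B* went from between 54.8 and 65.0 CPM to between 790 and 904 CPM (3.79, SE 0.03), and *NLRC5*, the transactivator of class I genes, from between 15.0 and 20.3 CPM to between 175 and 283 CPM (3.48, SE 0.07). The heavy chains *HLA-C*, *HLA-E* and *HLA-F*, *B2M*, *TAP2*, *TAPBP*, *TAPBPL* and the trimming peptidases *ERAP1* and *ERAP2* were also among the 13. The 3 general chaperones of the endoplasmic reticulum, *CALR*, *CANX* and *PDIA3*, were not called, as *CALR* with 794 to 988 CPM unstimulated and 812 to 1122 CPM stimulated (0.06, SE 0.03). *HLA* genes are near-identical in part, and how reads that fit several of them were divided is not given in the sources used here.

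The proteasome divided by subunit. Raised were 10 of 25 genes, among them the 3 catalytic subunits of the immunoproteasome and both chains of the PA28 activator. *PSMB9* went from between 4.21 and 4.89 CPM to between 189 and 212 CPM (5.24, SE 0.05), *PSMB10* from between 24.0 and 28.9 CPM to between 231 and 297 CPM (3.31, SE 0.06) and *PSMB8* from between 32.6 and 37.5 CPM to between 214 and 279 CPM (2.79, SE 0.05). *PSME2*, a PA28 chain, went from between 62.2 and 72.6 CPM to between 306 and 343 CPM (2.25, SE 0.03). None of *PSMB5*, *PSMB6* and *PSMB7*, whose places these subunits take, was called, although 5 subunits of the outer ring were (*PSMA2*, *PSMA3*, *PSMA4*, *PSMA5* and *PSMA6*). *PSMB4* was at 0.25 (SE 0.04) and *PSMD2* at -0.03 (SE 0.05). Dependence of the effect on the siRNA was called at limma's F test and a range above 1.5-fold. This held for 0 of the 25 genes, beside 1540 of all genes tested (8.56%). *PSMD2* passed the F test (adjusted p = 0.00947) but had a range of only 0.285. *PSMB9* overlaps both *PSMB8* and *TAP1* on the opposite strand.

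Genes of MHC class II antigen presentation were mostly raised as well. Of 20 tested genes 15 were shared and raised, with a median of 1.99, or 2.74 with a gene at 0 reads set to its bound. The median was 4.11 with edgeR's quasi-likelihood test, 4.17 with DESeq2 and 3.43 with a pseudocount of 0.1. *CIITA*, the master regulator of class II transcription, went from between 1.76 and 2.49 CPM to between 72.0 and 108 CPM (4.79, SE 0.09). *CD74*, the invariant chain, went from between 0.0941 and 0.304 CPM (median 0.156) to between 235 and 253 CPM (median 243; 7.71, SE 0.05, adjusted p = 1.85e-17). *HLA-DRA* had 3 reads in all 6 unstimulated libraries together and between 23.9 and 34.7 CPM in stimulated ones, a ratio of 2096 (95% exact Poisson interval 717 to 10164 from the reads without IFNγ, counting error only). The lysosomal proteases *CTSB*, *CTSL* and *LGMN* and the RFX subunits *RFXAP* and *RFXANK* were not called. *LGMN* was just below the fold threshold at 0.56 (SE 0.06) and passed it without any 1 of the 4 siNC libraries (0.59), and *CTSB*, with 756 to 872 CPM unstimulated and 712 to 797 CPM stimulated, was at -0.09 (SE 0.03).

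Defence within the cell formed another block of raised genes. Of 29 tested genes of this list 25 were shared and raised and 0 lowered (median 2.00, or 3.09 with edgeR's quasi-likelihood test and 3.08 with DESeq2, which each called 27). *GBP4* went from between 0.0490 and 0.192 CPM to between 131 and 238 CPM (7.45, SE 0.12), *GBP1* from between 6.53 and 10.2 CPM to between 486 and 751 CPM (6.12, SE 0.11), and *APOL1* from between 0.979 and 1.62 CPM to between 140 and 241 CPM (6.23, SE 0.07). Guanylate binding proteins coat and lyse intracellular pathogens. *STING1*, the adaptor of cytosolic DNA sensing, was not called (0.18, SE 0.05, adjusted p = 0.0153), nor were *IRGQ* (-0.06, SE 0.04), *ZBP1* and *APOBEC3B*. The effect depended on the siRNA in 14 of the 25 raised genes, and it was largest in siPDL1-1 cells in 12 of them. Of all 650 raised genes it depended on the siRNA in 220 (33.8%), and was largest in siPDL1-1 cells in 156 of these. Over all genes tested the share with such a dependence was 8.56%.

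Many of these genes stood side by side in the genome. Of the 650 raised genes 27.4% were next to another raised gene among the genes tested, beside 6.83% of all tested genes that were next to a raised one. For lowered genes the shares were 16.1% and 1.70%. On chromosome 6, 70 of 940 tested genes were raised (7.45%). The longest runs (GRCh38) were 9 genes from *HLA-DOB* to *HLA-DMA* at chr6:32812763-32969094, with *TAP1*, *TAP2*, *PSMB8* and *PSMB9* between them, and 7 genes with *GBP1* to *GBP6* at chr1:88979456-89388160. Runs of 4 were, among others, *APOL1* to *APOL4* at chr22:36140330-36267530 and *CXCL9* to *CXCL11* at chr4:76001275-76112802. Counting took both strands together, and how reads that fit several members of such families were divided is not given in the sources used here.

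Among chemokines the ligands of CXCR3 had the largest changes. Of 11 tested genes 5 were shared and raised, namely *CXCL9*, *CXCL10*, *CXCL11*, *CXCL16* and *CX3CL1* (list median 0.64, or 0.32 without siPDL1-1 cells). *CXCL9*, *CXCL10* and *CXCL11*, the ligands that draw activated T cells, had 0, 12 and 3 reads in the 6 unstimulated libraries together. *CXCL9* was between 19.4 and 39.8 CPM with IFNγ. Its mean of 29.2 CPM was at least 322-fold higher than without IFNγ, taking a floor of 3 reads per unstimulated library. *CXCL10* was between 69.7 and 309 CPM, a ratio of 3591 (95% exact Poisson interval 2056 to 6950), and *CXCL11* between 15.6 and 67.2 CPM, a ratio of 2575 (881 to 12487). All 3 stood highest in siNC and lowest in siPDL1-2 cells with IFNγ, as *CXCL10* with 285 and 309, 226 and 261, and 69.7 and 72.5 CPM in siNC, siPDL1-1 and siPDL1-2 (adjusted p for the dependence 4.33e-08). *CCL2*, a monocyte attractant, was between 4.20 and 6.64 CPM unstimulated and between 4.86 and 9.88 CPM stimulated (0.13, SE 0.10), and *CXCL8*, which attracts neutrophils, was at -0.40 (SE 0.18) with effects that differed between siRNAs (-1.09, 0.19 and -0.31).

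The study's own immunosuppressive genes were also followed. The study followed them by qPCR in other glioblastoma cells, mostly under IL12 in co-culture with blood mononuclear cells. It also compared immunosuppressive genes in RNA-seq of stimulated U251 cells, and reported that of these only *IDO1* fell along with *PD-L1* on its silencing. Of 10 genes 8 were shared and raised, with a median of 2.19. Beside *CD274*, *PDCD1LG2* (PD-L2) went from between 1.07 and 1.65 CPM to between 16.3 and 20.5 CPM (3.07, SE 0.08), and *LGALS9*, a galectin that binds TIM-3, from between 6.61 and 9.63 CPM to between 29.8 and 82.1 CPM (2.42, SE 0.13). *SOCS1*, an inhibitor of JAK kinases, went from between 0.304 and 0.667 CPM to between 7.14 and 26.6 CPM (3.13, SE 0.21). The cytokine *CSF1* went from between 70.3 and 92.7 CPM to between 197 and 274 CPM (1.43, SE 0.05), and the death receptor *FAS* from between 4.21 and 8.23 CPM to between 23.7 and 29.6 CPM (1.96, SE 0.11). *NOS2*, inducible nitric oxide synthase, remained low, with between 0.490 and 1.06 CPM unstimulated and between 1.59 and 3.94 CPM stimulated (0.91, SE 0.11). *TDO2*, with 6.25 to 11.9 CPM and 7.28 to 11.5 CPM (-0.05, SE 0.07), and *IL20RA* (0.26, SE 0.07, adjusted p = 0.015) were not called.

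*IDO1* was the shared raised gene of largest change, and it was not equal between siRNAs. With IFNγ it stood at 508 and 516 CPM in siNC, 243 and 233 CPM in siPDL1-1, and 237 and 244 CPM in siPDL1-2 cells. The log2 fold changes were 8.80, 7.88 and 7.81 (adjusted p for the dependence 8.94e-06). Among 14 tested enzymes of tryptophan and tetrahydrobiopterin metabolism 4 were shared and raised (*IDO1*, *WARS1*, *NOS2* and *GCH1*), with a list median of 0.02. *WARS1* went from between 89.9 and 111 CPM to between 2387 and 2825 CPM (4.63, SE 0.07). *GCH1*, which makes the first step to tetrahydrobiopterin, went from between 3.72 and 6.93 CPM to between 18.7 and 40.5 CPM (2.26, SE 0.19). Enzymes downstream of *IDO1* such as *KYNU* and *KMO* were not called, and *KYAT3* was at 0.55 (SE 0.05) and *QDPR* at -0.04 (SE 0.05).

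Of 32 other immune ligands, receptors and cytokines 13 were shared and raised and 1, *VTCN1*, an inhibitory ligand of the B7 family, was lowered (median 0.15, or 0.28 with edgeR's quasi-likelihood test). *IL18BP*, the decoy of interleukin 18, went from between 6.59 and 8.50 CPM to between 140 and 161 CPM (4.21, SE 0.05), a change that was nearly the same in the 3 siRNA groups (4.22, 4.17 and 4.23). *TNFRSF14* (HVEM) went from between 3.43 and 4.59 CPM to between 37.7 and 44.1 CPM (3.02, SE 0.07). The adhesion molecule *VCAM1* went from between 5.48 and 12.2 CPM to between 60.8 and 104 CPM (2.92, SE 0.14). Raised with them were *ICAM1*, *CD40*, *CD47*, *MICB*, *IL6*, *IL7*, *IL15*, *IL15RA*, *IL32* and *TNFSF13B*. The transforming growth factors *TGFB1*, *TGFB2* and *TGFB3* were not called, with *TGFB1* between 128 and 178 CPM unstimulated and between 119 and 199 CPM stimulated (0.14, SE 0.08). *PVR*, a ligand of TIGIT, was at -0.21 (SE 0.04). *IL18BP* lies within *NUMA1* on the other strand.

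Genes known from the type I interferon response were raised in all siRNA groups, but to unlike degrees. Of 43 tested genes 39 were shared and raised and 0 lowered, and medians were 2.24 in siNC, 4.34 in siPDL1-1 and 2.28 in siPDL1-2 cells. In 34 of the 39 the effect depended on the siRNA, and in all 34 it was largest in siPDL1-1 cells. Of all 650 raised genes the effect depended on the siRNA in 220, and was largest in siPDL1-1 cells in 156 of these. *IFIT3*, an RNA-binding antiviral protein, was between 2.23 and 7.67 CPM without and between 92.8 and 721 CPM with IFNγ (5.35, SE 0.22). *XAF1* went from between 0 and 0.174 CPM to between 36.1 and 169 CPM (5.96, SE 0.27). Not called were *IFITM2* (0.20, SE 0.05), *MX1*, *HERC5* and *HERC6*. *HERC5*, the ligase of ISG15, had all stimulated libraries above the unstimulated ones (12.7 to 15.0 against 18.9 to 147 CPM), with an adjusted p of 0.0126. Calls over 12 libraries were 39 without the siPDL1-1 cells, 37 without siNC and 34 without siPDL1-2.

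Genes of cell death and complement were raised in part. Of 25 cell death genes 13 were shared and raised (median 0.60), led by *CASP1*, the inflammatory caspase, from between 1.55 and 3.66 CPM to between 21.8 and 25.4 CPM (2.79, SE 0.12), and *TNFSF10* (TRAIL), from between 9.72 and 11.4 CPM to between 34.6 and 156 CPM (2.45, SE 0.29). *TNFRSF10B*, a receptor of TRAIL, with 141 to 182 CPM and 134 to 184 CPM, was not called (-0.03, SE 0.03), and *BAX* was at 0.01 (SE 0.05). Without siPDL1-1 cells, or without siNC cells, 10 of the 25 were raised. Of 16 complement genes 9 were shared and raised (median 1.40). *SERPING1*, the C1 inhibitor, went from between 1.72 and 3.31 CPM to between 44.7 and 106 CPM (4.18, SE 0.12), *CFB* from between 2.60 and 4.27 CPM to between 31.3 and 58.8 CPM (3.26, SE 0.09) and *C2*, which overlaps *CFB*, from between 0.147 and 0.916 CPM to between 8.41 and 17.9 CPM (2.96, SE 0.10). The membrane regulators *CD46*, *CD55* and *CD59* were not called. *CD59* was lower in every stimulated library (273 to 330 against 242 to 271 CPM) but at -0.28 (SE 0.04) short of the fold threshold, and *CLU* was at 0.01 (SE 0.03).

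NF-kB genes moved by small amounts (median 0.11). Of 18 tested genes 1 was raised, *NFKBIZ*, an inducible nuclear IkB protein, at 0.69 (SE 0.10), and without siPDL1-1 cells this call was lost (0.56). In siPDL1-2 cells it was at 8.65 and 8.24 CPM without and 11.2 and 9.65 CPM with IFNγ. *TNFAIP2* was at 0.41 (SE 0.05) and *TNIP1* at -0.04 (SE 0.04).

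**Figure D3:**
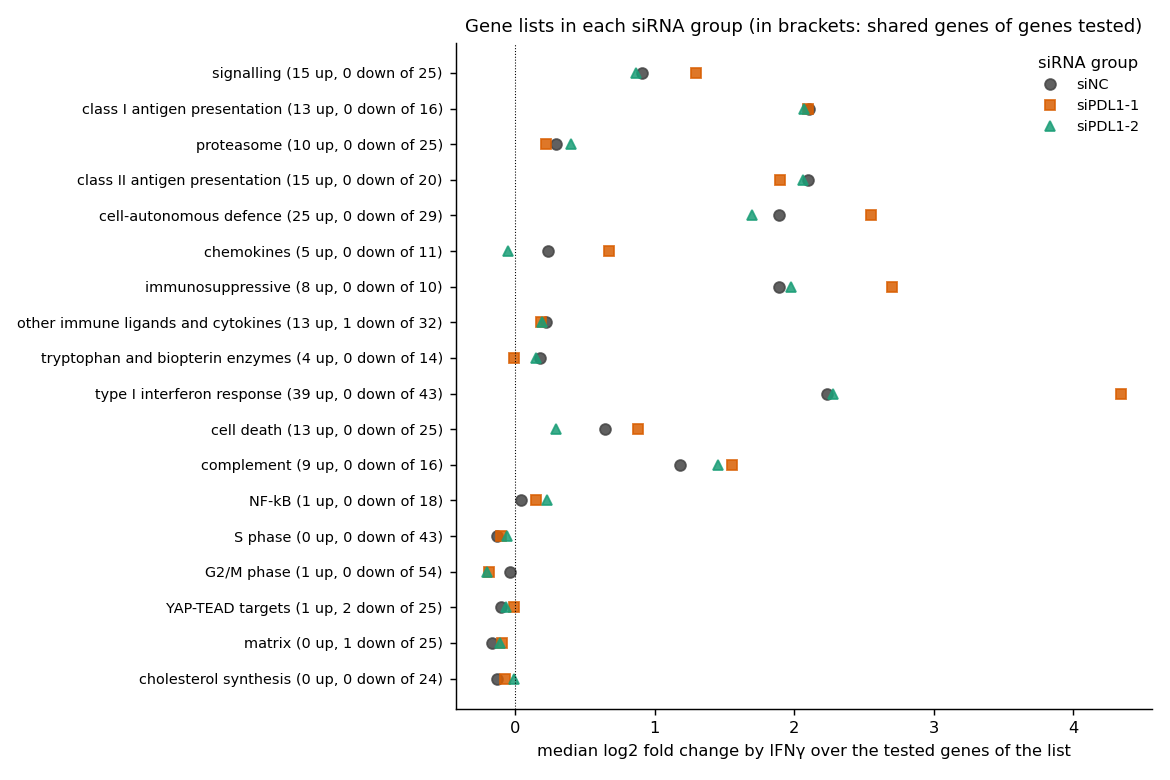
Median log2 fold change by IFNγ over the tested genes of each of 18 gene lists (horizontal axis) in siNC, siPDL1-1 and siPDL1-2 cells, with the shared genes of each list in brackets. The 3 siRNA groups lay close together for class I antigen presentation (2.11, 2.10 and 2.07) and apart for the type I interferon response (2.24, 4.34 and 2.28), and the cell cycle, matrix and cholesterol lists lay near 0.

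Lists of the cell cycle, matrix and sterol synthesis held few shared genes. In S phase genes 0 of 43 were called over 12 libraries by limma, as by edgeR's quasi-likelihood test and DESeq2, although 20 were lower and 3 higher at an unadjusted p under 0.05 (median -0.10), beside 20.3% and 21.2% of all genes tested, and 11 were lower at FDR under 0.01. Of 54 G2/M genes 1 was raised, *PSRC1*, a spindle protein, from between 69.2 and 91.6 CPM to between 117 and 149 CPM (0.76, SE 0.06), while 21 were lower at FDR under 0.01 without reaching the fold threshold (median -0.12). Of all genes tested 8.63% were lower at FDR under 0.01 with no fold threshold. With total-count scaling the medians were -0.17 in S phase and -0.19 in G2/M genes. *MKI67* was at -0.38 (SE 0.04), *TOP2A* at -0.08 (SE 0.04), *TYMS* at -0.16 (SE 0.03) and *NASP* at 0.20 (SE 0.03). Of 24 cholesterol synthesis genes 0 were called by limma, edgeR or DESeq2, with 9 lower and 5 higher at an unadjusted p under 0.05. At FDR under 0.01 with no fold threshold 5 of them were lower and 2 higher. Without siPDL1-2 cells 2 of the 24 were raised. *SREBF2* was at -0.03 (SE 0.04). Of 25 matrix genes 1 was lowered, *THBS1* (thrombospondin 1), from between 170 and 237 CPM to between 99.1 and 180 CPM (-0.71, SE 0.07). Its effect was -0.77 in siNC, -0.41 in siPDL1-1 and -0.96 in siPDL1-2 cells. With edgeR's quasi-likelihood test and with DESeq2 2 of the 25 were lowered. At FDR under 0.01 with no fold threshold 11 matrix genes were lower and 4 higher (median -0.10). *SPARC* was at -0.25 (SE 0.03) and *TNC* at -0.03 (SE 0.04). Whether fewer cells in a state or less RNA per cell lay behind a value cannot be told apart in bulk samples.

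Among the lowered genes with the largest changes were *ANKRD1*, *SERPINA3*, *LMCD1*, *ADAMTS15*, *NT5DC2*, *SCN4B* and *ADGRG1*. *ANKRD1*, a transcriptional cofactor and a known YAP-TEAD target, went from between 55.1 and 106 CPM (median 89.5) to between 24.1 and 31.1 CPM (median 26.1; -1.53, SE 0.12, adjusted p = 1.29e-06). *SERPINA3*, a secreted protease inhibitor of reactive astrocytes, went from between 18.9 and 37.6 CPM to between 7.60 and 13.3 CPM (-1.40, SE 0.07). *LMCD1*, a LIM domain cofactor, went from between 48.4 and 64.1 CPM to between 18.7 and 22.6 CPM (-1.38, SE 0.06). For each of these 7 genes every stimulated library lay below every unstimulated one.

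The other 4 were a mixed group. The sodium channel subunit *SCN4B* went from between 13.3 and 17.1 CPM to between 4.80 and 7.17 CPM (-1.21, SE 0.07). The matrix protease *ADAMTS15* went from between 35.3 and 58.4 CPM to between 15.3 and 21.6 CPM (-1.30, SE 0.08). *ADGRG1*, an adhesion receptor of neural precursors, went from between 87.4 and 105 CPM to between 32.7 and 53.7 CPM (-1.11, SE 0.06), and *NT5DC2* from between 101 and 140 CPM to between 42.9 and 54.3 CPM (-1.27, SE 0.09). Of the 25 YAP-TEAD targets 2 were lowered, *ANKRD1* and *CCN2*, and 1, *NT5E*, the CD73 ectonucleotidase, was raised, from between 21.9 and 27.4 CPM to between 41.0 and 65.7 CPM (0.97, SE 0.08). The list median was -0.09, and *MYOF* (0.11, SE 0.03) and *IGFBP3* (-0.49, SE 0.10) were not called. *CCN2* went from 40.2 and 40.7 to 16.7 and 16.2 CPM in siNC cells but from 12.8 and 13.0 to 10.4 and 9.88 CPM in siPDL1-2 cells (-1.25 and -0.32, adjusted p for the dependence 1.13e-05). Its call over 12 libraries (-0.61, SE 0.14, limma adjusted p = 0.00655) was weak, with the effect largest in siNC cells (-0.25 in siPDL1-1). The call was lost without siNC_C 1 or 2 (-0.53 and -0.52) or siNC_IFN 1 or 2 (-0.53 and -0.52). It was also lost, at no smaller effect, without siPDL1-1_C 1 (-0.63), siPDL1-1_IFN 2 (-0.64) or siPDL1-2_IFN 2 (-0.63). Without the siNC group the effect was at -0.29.

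Then it was asked whether the shared genes changed by the same amount under each siRNA. The effect depended on the siRNA in 220 of the 650 raised and 16 of the 155 lowered genes, beside 8.56% of all genes tested. Of the 220 genes the effect was largest in siPDL1-1 cells in 156, in siNC in 62 and in siPDL1-2 in 2, and it was smallest in siPDL1-2 cells in 162. Medians over all raised genes were 1.06 in siNC, 1.19 in siPDL1-1 and 0.88 in siPDL1-2 cells, and over lowered genes -0.80, -0.68 and -0.75. Calls in siNC alone numbered 1460 (8.12% of genes tested), in siPDL1-1 1236 (6.87%) and in siPDL1-2 947 (5.27%). Of the 650 raised genes 600, 616 and 486 were among them. For the other 430 raised and 139 lowered genes the test of the dependence was not passed, which does not show that the effects were equal. Their 3 log2 fold changes spanned a median of 0.35 and 0.30.

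**Figure D4:**
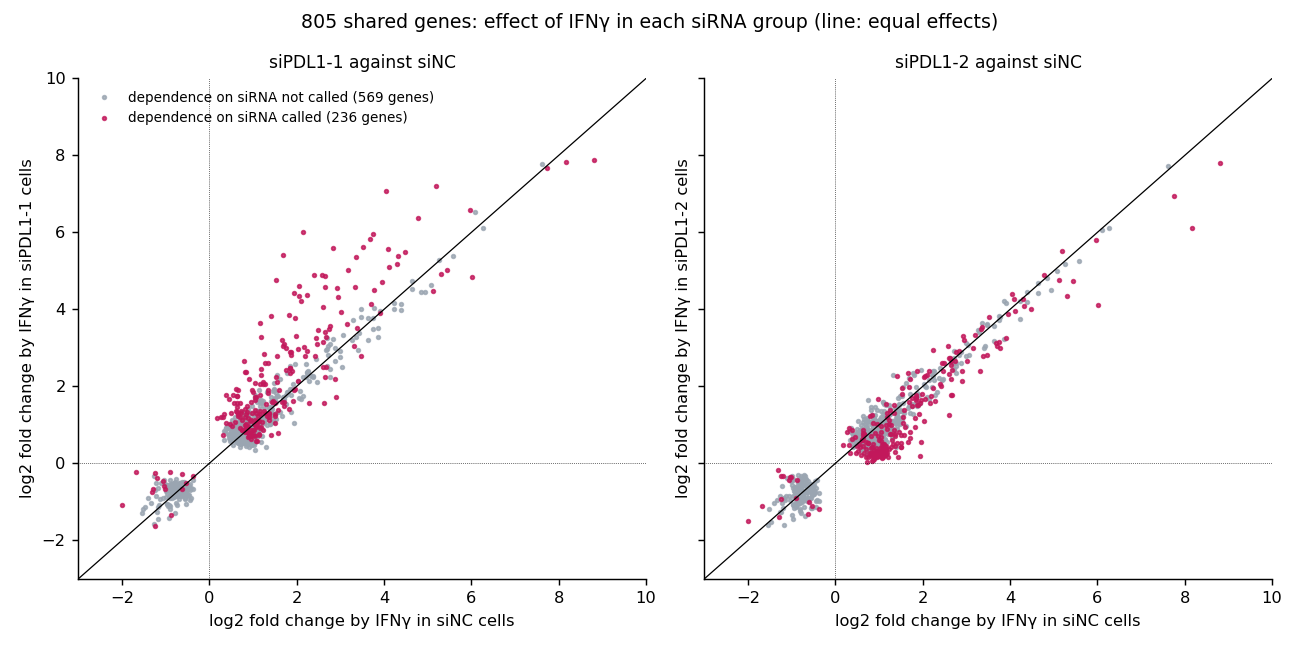
Log2 fold change by IFNγ of the 805 shared genes in siPDL1-1 cells (left) and siPDL1-2 cells (right) against that in siNC cells, with the line of equal effects. Both panels share the siNC values. Genes whose effect depended on the siRNA (236) lay mostly above the line in siPDL1-1 cells and more often below it in siPDL1-2 cells, and the other 569 lay around it.

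Among shared genes raised by more than 2 at a mean of at least 5 CPM, those with the smallest spread between siRNAs were *IL18BP*, *PSME2*, *HLA-B* and *TAP1*. Their 3 log2 fold changes spanned 0.057, 0.077, 0.082 and 0.094. *HLA-B* stood with IFNγ at 869 and 790 CPM in siNC, 904 and 866 CPM in siPDL1-1, and 794 and 842 CPM in siPDL1-2 cells. The siNC libraries overlapped both other groups, while those of siPDL1-1 lay above those of siPDL1-2. In *PSME2* the stimulated siNC libraries (332 and 343 CPM) lay above those of siPDL1-1 (318 and 306 CPM) and siPDL1-2 (306 and 323 CPM), as the unstimulated ones did, and the log2 fold changes were 2.21, 2.25 and 2.29. These genes were picked for this property, so their spread is a description.

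At the other end stood genes of the antiviral response. *MX2*, a GTPase that restricts viruses, was at 4.16 and 4.07 CPM in siNC, 144 and 138 CPM in siPDL1-1, and 5.51 and 5.98 CPM in siPDL1-2 cells with IFNγ. *RSAD2* (viperin) was at 2.27 and 2.18, 54.5 and 54.0, and 3.40 and 2.78 CPM in this order. *DDX58* (RIG-I), a sensor of viral RNA, was at 47.9 and 49.0, 402 and 404, and 44.4 and 41.0 CPM. In all 3 genes the siPDL1-1 libraries stood far apart while siNC and siPDL1-2 were near each other. *OAS2*, an oligoadenylate synthetase, was at 16.9 and 17.7, 372 and 368, and 25.0 and 22.6 CPM, and *IFIT1* at 52.9 and 51.6, 581 and 613, and 34.2 and 35.6 CPM. *CMPK2*, a mitochondrial nucleotide kinase that overlaps *RSAD2*, was at 2.15 and 2.05, 32.7 and 34.6, and 2.99 and 4.23 CPM. Unstimulated siPDL1-1 libraries were above the other unstimulated ones in 5 of these genes too, as *IFIT1* with 19.5 and 18.8 CPM against 7.32 to 9.69 CPM and *MX2* with 1.25 and 1.18 CPM against 0.0490 to 0.359 CPM. In *CMPK2*, with 0.319 and 0.212 CPM, 1 of them lay below a siPDL1-2 library (0.240 CPM). The 3 log2 fold changes spanned 3.86 in *MX2*, 3.72 in *RSAD2*, 3.25 in *CMPK2*, 3.04 in *OAS2*, 2.85 in *DDX58* and 2.82 in *IFIT1*. These 6 were chosen for this spread. Without siPDL1-2 cells the calls of *MX2*, *RSAD2* and *CMPK2* over the other libraries were lost (limma adjusted p = 0.0127, 0.0181 and 0.0164). That fit counts the difference between siNC and siPDL1-1 effects as spread, and all 3 genes were called within each siRNA group. For *MX2* the SE was 0.55 over 12 libraries and 0.12 within each siRNA group.

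**Figure D5:**
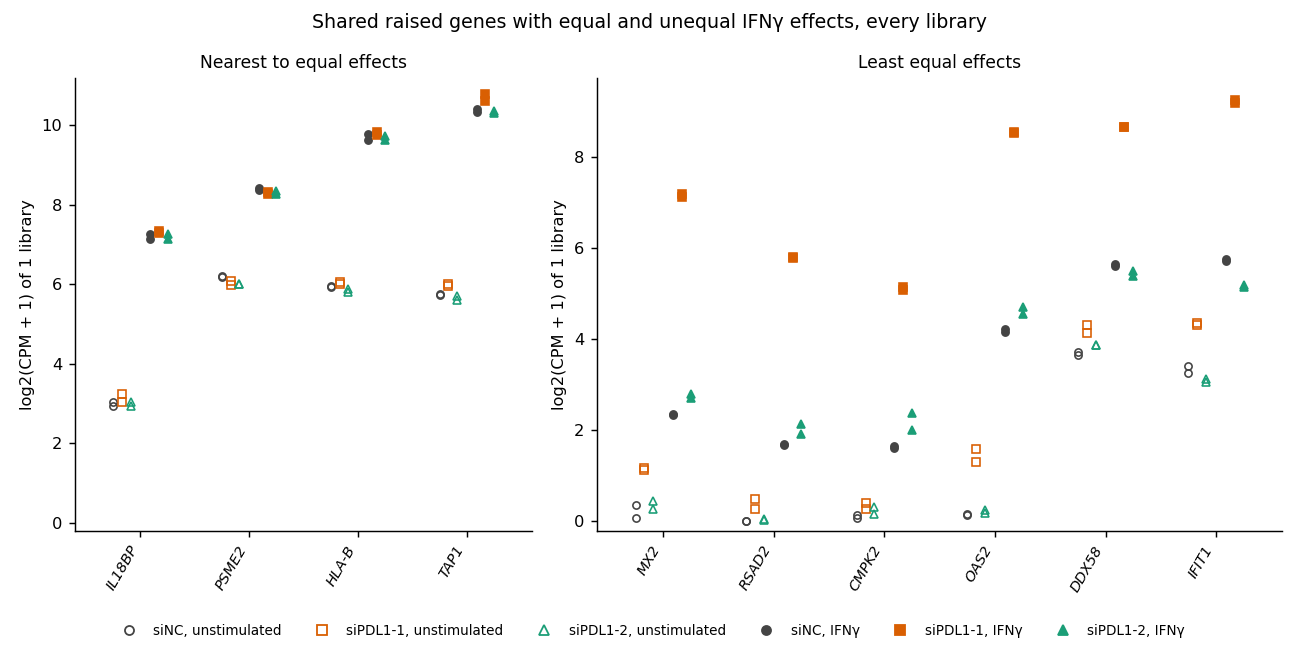
Values of each library, as log2(CPM + 1), for the 4 shared genes with the most equal IFNγ effects among those raised by more than 2 (left) and the 6 with the least equal effects among those whose effect depended on the siRNA (right), all at a mean of at least 5 CPM. Open symbols are unstimulated and filled symbols IFNγ libraries. Both stimulated siPDL1-1 libraries stood above the other stimulated libraries in each of the 6 genes on the right, as in *MX2* with 144 and 138 CPM against 4.07 to 5.98 CPM.

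A few genes were called over 12 libraries without being shared. They numbered 26 raised and 4 lowered, and in 23 of these 30 the siPDL1-2 libraries overlapped or went the other way, as against 6 for siNC and 1 for siPDL1-1. *STARD4*, a sterol transfer protein, went from 31.0 and 27.4 to 67.5 and 69.1 CPM in siNC and from 32.2 and 32.7 to 77.9 and 99.2 CPM in siPDL1-1 cells, but was at 56.7 and 61.4 CPM without and 59.3 and 59.7 CPM with IFNγ in siPDL1-2 cells. *SLC30A1*, a zinc exporter, was likewise at 33.0 and 34.6 CPM without and 34.4 and 34.8 CPM with IFNγ in siPDL1-2 cells, while it went from 15.5 and 15.8 to 37.9 and 37.2 CPM in siNC cells. In both genes the unstimulated siPDL1-2 libraries already stood where the stimulated ones of the other groups did or close to it. *LPAR6*, a lysophosphatidic acid receptor gene inside *RB1*, went from 5.83 and 6.96 to 15.3 and 17.1 CPM in siNC cells and from 11.5 and 12.5 to 13.1 and 12.3 CPM in siPDL1-2 cells. The noncoding *AL035078.4*, which overlaps *RCN1* and *PAX6*, was at 15.1 and 14.2 CPM in unstimulated siNC and 15.9 and 17.2 CPM in unstimulated siPDL1-1 cells, and at or under 0.369 CPM in all other libraries. The calls of these 4 genes over 12 libraries were weak. They were lost without the siNC group, without the siPDL1-1 group, without any of the 4 siNC libraries and without either unstimulated siPDL1-1 library, and all but that of *LPAR6* also without either stimulated siPDL1-1 library. Over these libraries left out, the adjusted p of limma was between 0.0136 and 0.0255 for *STARD4*, 0.0107 and 0.0177 for *SLC30A1*, 0.0101 and 0.0116 for *LPAR6*, and 0.0105 and 0.0233 for *AL035078.4*.

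Membership near the threshold was a matter of small differences. Just inside were *PLCD4* at -0.5858 and *CERK* at -0.5860, and just outside were *SLC37A2* at 0.5842 and *SCARA3* at -0.5836, beside a threshold of 0.5850. Of the 650 raised genes 20 had at most 3 reads in every unstimulated library and 4 had 0, so that their fitted changes depend on the pseudocount.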

How the data were processed

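RNA-seq of 12 U251 libraries was analysed. Per the methods, CLC Genomics Workbench served the authors for trimming, mapping (GRCh38, Ensembl), strand-blind counting and normalization. The signal values deposited by the authors are the resulting normalized CPM. All values (100%, tolerance 0.05 reads) were whole multiples of 1 read, so reads were recovered. Extraction and sequencing instrument are named differently in the paper and the labels.

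Genes were kept with filterByExpr (minimum count 10, minimum total 15, 6 conditions). limma with trend and robust estimates was fitted to log2(CPM + 1) with siRNA and IFNγ as terms. Effects within each siRNA and their difference (F test, 2 degrees of freedom) came from a fit of 6 conditions, with the difference called at FDR under 0.01 and a range above 1.5-fold. Benjamini-Hochberg adjustment covered all 17982 genes. The count test on recovered reads was an alternative.

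The members and the 18 gene lists were chosen with earlier results of these data known. Named genes were the 12 raised and 8 lowered shared genes of largest change at a mean of at least 5 CPM, 3 called and 2 not called genes per list, the study's immunosuppressive genes, the most and least equal genes (6 and 4), and 4 genes called but not shared. Some genes under this rule are not reported here. Alternatives were edgeR's quasi-likelihood test, DESeq2, other filters, pseudocounts, thresholds and scalings, a replicate block, and leaving out libraries or siRNA groups. Total-count scaling was chosen after seeing the data. Replicates were no copies (mean chi-square 1.85 to 7.76 per gene).

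On simulated data for 17982 genes, 200 genes averaging at least 1 CPM were changed by 1 (log2) in all siRNA groups. Of these 195 were recovered as shared, with 0 false calls among genes given no change at all. These planted effects were equal between siRNA groups, unlike those of genes whose effect depended on the siRNA. Of 200 genes changed by 1 in siPDL1-1 alone, 0 were called shared. Averaged over the 3 siRNA groups such a change lies below the fold threshold, so this outcome was largely fixed in advance. The test of dependence on siRNA recovered 168 of these 200, with 3 false calls. Software was limma 3.58.1, edgeR 4.0.16 and DESeq2 1.42.0 under R 4.3.3, and pandas 2.3.3, numpy 2.4.6 and matplotlib 3.10.9 under Python 3.11.15.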

Additional observations from a re-analysis of the deposited data

Results flagged for a closer look

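The effect of IFNγ was called as different between siRNA groups in 1540 of 17982 genes and, among the genes named here, in 37. Such calls needed limma's F test at FDR under 0.01 and a range above 1.5-fold. By the F test with no fold threshold 3092 genes were called. Named genes such as *WARS1* and *THBS1* passed the F test but not the range. The difference of the highest and the lowest of the 3 log2 fold changes follows for each of the 37. Largest in size in siPDL1-1 cells were the effects on *MX2* 3.86, *RSAD2* 3.72, *CMPK2* 3.25, *OAS2* 3.04, *DDX58* 2.85, *IFIT1* 2.82, *HERC5* 2.65, *TNFSF10* 2.13, *XAF1* 2.01, *IFIT3* 1.58, *BATF2* 1.47, *SOCS1* 1.46, *GCH1* 1.44, *STARD4* 1.40, *CD274* 1.08, *LGALS9* 0.95, *CASP1* 0.86, *SERPING1* 0.81, *GBP1* 0.79, *IGFBP3* 0.73, *FAS* 0.72, *NT5DC2* 0.68, *NFKBIZ* 0.67 and *CFB* 0.64. Largest in siNC cells were those on *AL035078.4* 3.89, *CXCL10* 2.05, *CXCL11* 1.89, *CXCL8* 1.28, *SLC30A1* 1.18, *LPAR6* 1.14, *IDO1* 1.00, *CCN2* 1.00, *CXCL9* 0.95, *ANKRD1* 0.91, *VCAM1* 0.91, *GBP4* 0.80 and *CIITA* 0.65. Without siPDL1-2 unstimulated library 2 or IFNγ library 2 the count of 1540 was 997 and 971.

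In 4 cases 1 of 6 libraries stood apart from the others by Dixon's test, which chance does in about 1 in 20 groups. These were *CIITA* at 1.76 CPM in siNC unstimulated library 1, *IL18BP* at 8.50 CPM in siPDL1-1 unstimulated library 1, *PSMB8* at 37.5 CPM in siNC unstimulated library 1, and *SLC30A1* at 26.5 CPM in siPDL1-1 IFNγ library 1. The 3 siRNA groups were pooled here, so that such a library also differs from others by its siRNA.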

How the results depend on the processing

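Of 2499 values of named genes under other settings, 2430 kept their direction and side of the threshold, 58 lost and 11 gained a call, and none turned. Counts of lowered genes moved most: over 12 libraries and shared, they were 366 and 340 with edgeR's quasi-likelihood test, 402 and 357 with DESeq2 (1303 genes called over 12 libraries in all) and 353 and 334 with a pseudocount of 0.1. All 805 shared genes remained shared under these 3. With total-count scaling, which shifted stimulated libraries by -0.0743, 584 genes were raised and 227 lowered, and 725 of the 805 remained. Without the siPDL1-2 group 1022 genes were raised and 1219 shared (1019 raised), and 756 of the 805 remained, against 673 without siPDL1-1 and 678 without siNC. Calls in each siRNA group alone left 502 shared genes, 65 of them lowered.

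With no fold change threshold 3442 genes were called over 12 libraries (1891 raised, 1551 lowered), 3089 shared (1662 and 1427), 3092 for dependence on siRNA, and 4901, 4122 and 3080 within siNC, siPDL1-1 and siPDL1-2. Above 2-fold these were 348 (326 and 22), 347 (326 and 21), 373, and 453, 495 and 337. Leaving out 1 library gave between 785 and 859 shared genes and between 971 and 1860 genes for dependence on siRNA, with 997 without siPDL1-2_C replicate 2 and 971 without siPDL1-2_IFN replicate 2. A lone library is then assumed to vary like the other groups.

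Replicate numbers did not pair the libraries: deviations correlated above 0.1 in 2 of 15 pairs of conditions and in 0 of 3 pairs of the same siRNA. With a replicate block 803 genes were shared and 1472 depended on siRNA, and with a replicate block within siRNA 784 and 1374. *CCN2* lost its call under both blocks, and *AL035078.4*, *LPAR6*, *SLC30A1* and *STARD4* under the second.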
